A study of Mus musculus with 6 samples.

Results

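The genes named Clec encode proteins with a C-type lectin fold, most of them receptors on the surface of myeloid cells, platelets or endothelium. They were examined here in spleen RNA of 3 NOD.B10 (NOD.B10Sn-H2b/J) females, the mouse strain used as a model of primary Sjögren's syndrome (pSS), and of 3 C57BL/10 (BL/10) females, the healthy control strain. Members were taken by their gene symbol, as Clec followed by a digit, and 31 of the 47729 genes in the table of read counts were examined (2 further symbols of this form were not analysed here). No mouse was treated, and both strains carry the H2b haplotype. NOD.B10 females are described by the study as having clinical disease at 26 weeks of age. The labels give 36 weeks for BL/10 replicates 2 and 3 and 26 weeks for the other 4 libraries. The study's methods instead describe the controls as matched in age, and which of these holds is not known here. If the labels hold, age is partly confounded with strain, and results from the 4 libraries labelled 26 weeks (3 NOD.B10 and 1 BL/10) are given beside those that depend on it.

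C-type lectin receptors bind sugars, lipids or proteins on microbes and on other cells. Several activating members, such as Dectin-1 and Dectin-2, signal through the kinase SYK and the adaptor CARD9, either by a motif in their own tail or through partner chains such as FcRγ and DAP12, whereas inhibitory members carry a tyrosine motif that recruits phosphatases. In the spleen they are known as receptors of macrophages, monocytes, neutrophils and dendritic cells, and as ligands (the Clec2 products) for receptors of natural killer cells.

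Column names and descriptions were used to assign the strain. The titles and strain fields name the other strain for each of the 6 libraries, so that every direction below would be reversed under the titles. Ifi202b, an interferon-inducible gene that C57BL/6 mice barely transcribe, reached 485 to 838 counts in the libraries called NOD.B10 here, whereas those called BL/10 had 0 to 2. Total counts ran from 15662712 to 18298451 per library. Levels are given in CPM, the counts scaled to library size by the TMM method. The limit of detection was set at 3 counts, or 0.163 to 0.201 CPM depending on the library, and covers counting error only. One library stood apart, since pancreas acinar genes summed to 12343 CPM in BL/10 replicate 1, whereas BL/10 replicates 2 and 3 had 1902 and 107 CPM and no NOD.B10 library had more than 31.0 CPM. Both strains held the markers of spleen, with B cell genes at 2291 CPM or more and red pulp macrophage genes at 3804 CPM or more in every library.

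Most of the members lie in clusters on chromosome 6, where 23 of the 31 were found (build GRCm38). The Dectin-2 cluster held 8 members over 368 kb, the cluster of Clec2 genes (called Clr here) 7 members over 534 kb, and the Dectin-1 cluster 5 members over 130 kb. To show the start regions of the members that differed most and of a pair that went the other way, the 300 bases around the RefSeq start (250 before and 50 after it, build GRCm38.p6) are given for Clec12a, Clec1b and Clec7a, the neighbors of the Dectin-1 cluster that were lower in NOD.B10, and for Clec2g and Clec14a, which were higher. Sequences are written 5′ to 3′ on the strand of the gene. Capitals mark matches to any of 4 short motifs, searched on both strands. The letters GAGGAA can be bound by PU.1 and related factors of the ETS family. For factors of the GATA family the letters searched were AGATAA, for those of the RUNX family they were TGTGGT, and for those of the C/EBP family they were TTGCNNAA.
Clec12a, chr6:129349994-129350293, plus strand: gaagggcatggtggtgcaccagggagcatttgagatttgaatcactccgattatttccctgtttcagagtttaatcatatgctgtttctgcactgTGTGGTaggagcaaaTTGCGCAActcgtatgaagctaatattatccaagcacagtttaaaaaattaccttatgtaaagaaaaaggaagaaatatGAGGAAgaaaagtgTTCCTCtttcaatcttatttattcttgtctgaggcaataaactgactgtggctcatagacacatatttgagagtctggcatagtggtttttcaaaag
Clec1b, chr6:129397047-129397346, plus strand: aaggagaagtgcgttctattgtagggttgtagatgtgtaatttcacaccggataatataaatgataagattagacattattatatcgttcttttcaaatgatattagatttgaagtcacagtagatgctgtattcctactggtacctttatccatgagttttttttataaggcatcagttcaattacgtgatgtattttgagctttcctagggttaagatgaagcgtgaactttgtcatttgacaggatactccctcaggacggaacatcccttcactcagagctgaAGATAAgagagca
Clec7a, chr6:129472730-129473029, minus strand: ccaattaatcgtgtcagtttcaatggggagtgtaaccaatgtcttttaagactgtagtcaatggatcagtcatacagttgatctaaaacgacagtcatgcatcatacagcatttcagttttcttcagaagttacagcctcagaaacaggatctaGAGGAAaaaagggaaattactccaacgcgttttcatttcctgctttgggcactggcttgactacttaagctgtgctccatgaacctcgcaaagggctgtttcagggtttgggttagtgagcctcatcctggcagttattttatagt
Clec2g, chr6:128934131-128934430, plus strand: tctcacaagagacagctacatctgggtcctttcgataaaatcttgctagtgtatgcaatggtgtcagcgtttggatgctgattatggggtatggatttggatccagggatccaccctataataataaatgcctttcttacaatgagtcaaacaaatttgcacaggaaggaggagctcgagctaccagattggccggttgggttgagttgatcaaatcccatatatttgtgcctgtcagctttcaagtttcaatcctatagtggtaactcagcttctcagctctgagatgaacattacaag
Clec14a, chr12:58269209-58269508, minus strand: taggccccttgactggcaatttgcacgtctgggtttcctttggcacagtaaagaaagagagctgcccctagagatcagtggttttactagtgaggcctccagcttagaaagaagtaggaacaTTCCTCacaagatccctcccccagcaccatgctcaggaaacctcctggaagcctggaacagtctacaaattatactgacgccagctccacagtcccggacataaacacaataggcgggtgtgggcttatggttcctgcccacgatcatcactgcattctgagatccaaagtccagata
These are the letters of the reference strain, not of NOD.B10 or BL/10.

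Such starts were listed for 24 of the 31 members, with 27 start regions in all. The ETS letters were found in 16 of the 27 regions (59.3%), against 28.3% of the 32851 start regions of all genes. They stood at 2 places in Clec12a and at 1 place each in Clec7a and Clec14a, and no match was found in the windows of Clec1b and Clec2g. The GATA letters were found in 1 of the 27 regions, that of Clec1b (11.2% of all regions). The RUNX letters were found in 7 regions (25.9%, against 16.8% of all), and the C/EBP letters in 6 regions (22.2%, against 10.8% of all). A match is a description of the letters and was not tested as a site.

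Of the 31 members, 24 had enough counts to be tested, and 7 did not. Of these 7, Clec2j, Clec3a and Clec18a had 0 counts in the 6 libraries, and Clec4f, Clec2h, Clec2e and Clec12b had at most 5 counts in any library. Strains were compared by edgeR's quasi-likelihood test over all 15330 genes that passed its filter, with BL/10 as the reference. An adjusted p under 0.05 was found for 8 of the 24 members, against 17.3% of all tested genes. Of the 8 members, 3 were higher in NOD.B10 (9.11% of all tested genes were) and 5 were lower (8.22% of all tested genes were). Those higher were Clec2g, Clec14a and Clec16a, and those lower were Clec12a, Clec7a, Clec1b, Clec4n and Clec4a2. In RNA of whole spleens, fewer cells of a type and less RNA per cell cannot be told apart. Reads of both strains were mapped to the same reference genome, and whether sequence differences between the strains changed the counts was not tested. The median log2 fold change of the tested members was -0.08, beside 0.00060 for all tested genes. The libraries of the strains did not overlap for 12 of the 24 members, against 38.0% of all tested genes. When 1 library was left out in turn, between 6 and 9 members passed the threshold. The share of all tested genes called moved as well, from 8.12% without NOD.B10 replicate 1 (6 members) to 26.3% without BL/10 replicate 1 (9 members). In the libraries labelled 26 weeks 5 members were called, 1 higher and 4 lower, against 6.19% of all tested genes. The number of lower members was 3 without any one of the NOD.B10 replicates 1, 2 or 3, because Clec4a2 was no longer called together with Clec1b (without replicate 1) or Clec4n (without replicate 2 or 3).

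**Figure D1:**
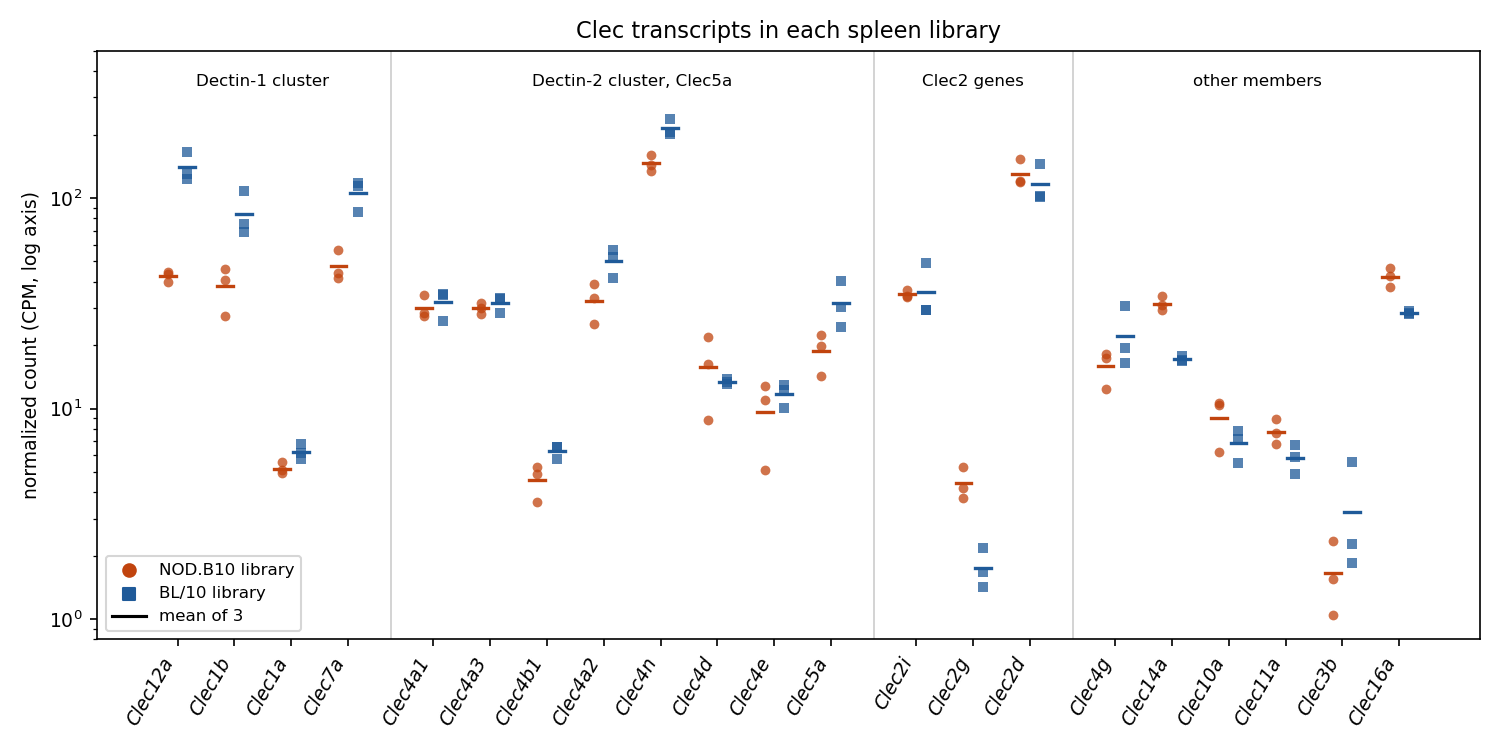
Normalized count (CPM, log axis) of the 21 members named here, grouped by cluster or role. Each point is 1 library, with NOD.B10 as circles and BL/10 as squares, and lines show the mean of 3 libraries. Clec12a lay between 40.0 and 44.7 CPM in NOD.B10 and between 123 and 166 CPM in BL/10.

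**Figure D2:**
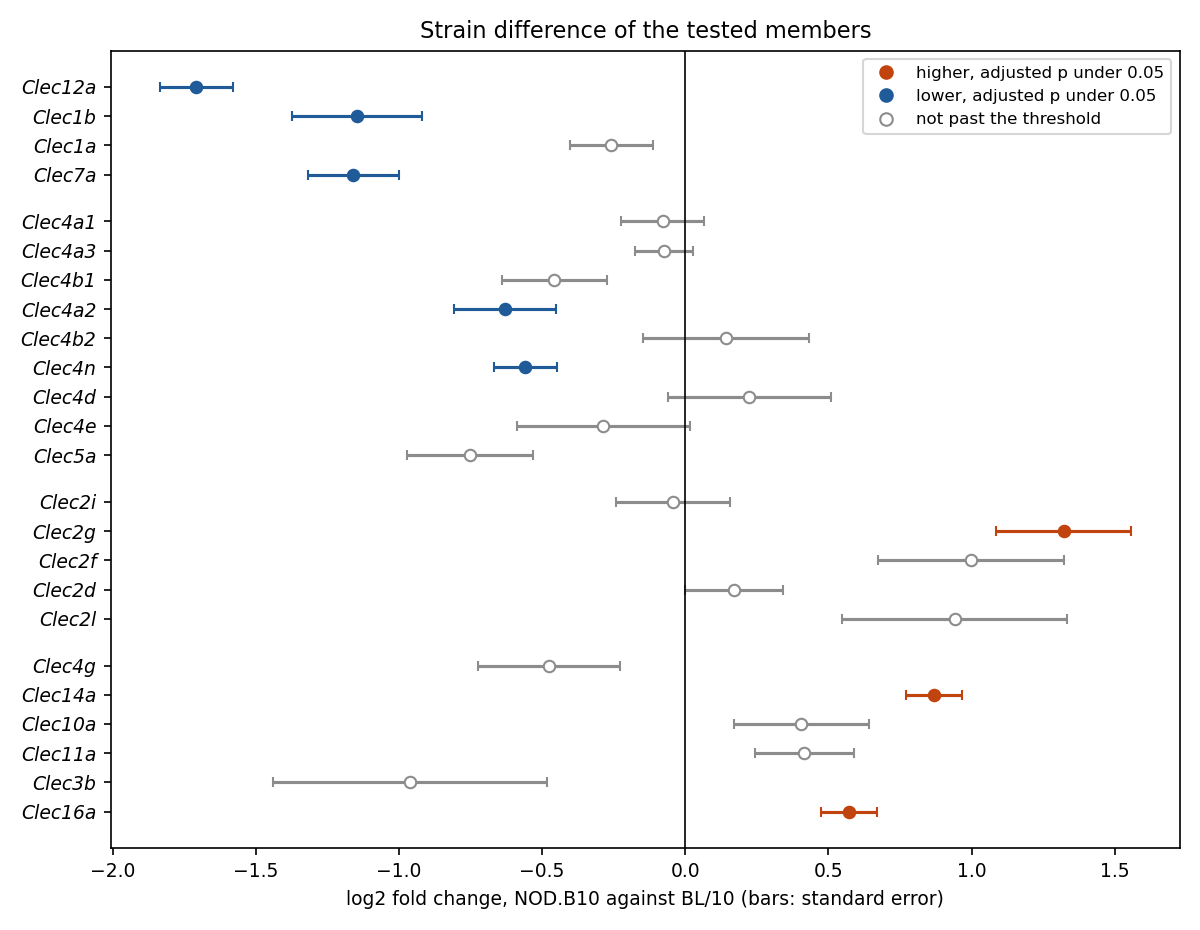
Log2 fold change of NOD.B10 against BL/10 for the 24 tested members, with bars for the standard error. Filled points passed an adjusted p of 0.05 in edgeR, with 3 to the right of 0 (higher in NOD.B10) and 5 to the left (lower).

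The largest difference was found in the Dectin-1 cluster. Clec12a (ENSMUSG00000053063, chromosome 6 from 129342691 to 129365303), whose product MICL is an inhibitory receptor of myeloid cells with a tail motif for phosphatases, was lower in NOD.B10. It had 43.3, 40.0 and 44.7 CPM in NOD.B10 replicates 1, 2 and 3 and 123, 166 and 131 CPM in BL/10 replicates 1, 2 and 3. The lowest BL/10 library lay well above the highest NOD.B10 library. The means were 42.7 ± 2.40 CPM for NOD.B10 and 140 ± 22.8 CPM for BL/10 (SD, n = 3 each). This was a log2 fold change of -1.71 (standard error, SE, 0.13, edgeR adjusted p = 0.000199), or 3.27-fold lower. Clec12a passed the threshold under all 15 alternative settings, with a log2 fold change between -1.80 and -1.52.

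Clec7a (ENSMUSG00000079293, from 129461591 to 129472779) encodes Dectin-1, the receptor for fungal β-glucan that signals through SYK and CARD9. It had 56.6, 44.1 and 41.5 CPM in the NOD.B10 libraries and 118, 113 and 86.2 CPM in the BL/10 libraries. The libraries did not overlap, and its level was 2.23-fold lower in NOD.B10 (log2 fold change -1.16, SE 0.16, edgeR adjusted p = 0.00312). All 15 settings kept it past the threshold, the highest adjusted p being 0.0168 without NOD.B10 replicate 3.

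Clec1b (ENSMUSG00000030159, from 129397297 to 129409335) encodes CLEC-2, the platelet receptor for podoplanin. It had 40.7, 46.1 and 27.6 CPM in NOD.B10 and 108, 69.1 and 75.6 CPM in BL/10. Both strains varied among their libraries, with BL/10 replicate 1 highest and NOD.B10 replicate 3 lowest, and the strains did not overlap. Its log2 fold change was -1.15 (SE 0.23, edgeR adjusted p = 0.0137), or 2.21-fold lower, and without NOD.B10 replicate 1 its adjusted p was 0.0507. Of its 5103 exonic bases, 184 are shared with a neighboring gene, and reads there could not be assigned to either.

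Clec1a, which lies between Clec1b and Clec7a and encodes a receptor for fungal melanin, did not pass the threshold. It had 5.08, 4.91 and 5.56 CPM in NOD.B10 and 6.14, 6.77 and 5.74 CPM in BL/10 (log2 fold change -0.26, SE 0.15, edgeR adjusted p = 0.248). Its libraries did not overlap either, but the gap between the strains was small. Clec12b, an inhibitory receptor gene beside Clec12a, had at most 5 counts in any library and could not be compared. Thus 3 of the 4 tested members in the Dectin-1 cluster were called lower, within 130 kb of each other (8.22% of all tested genes were called lower). Genes of this region that are not members were not counted.

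**Figure D3:**
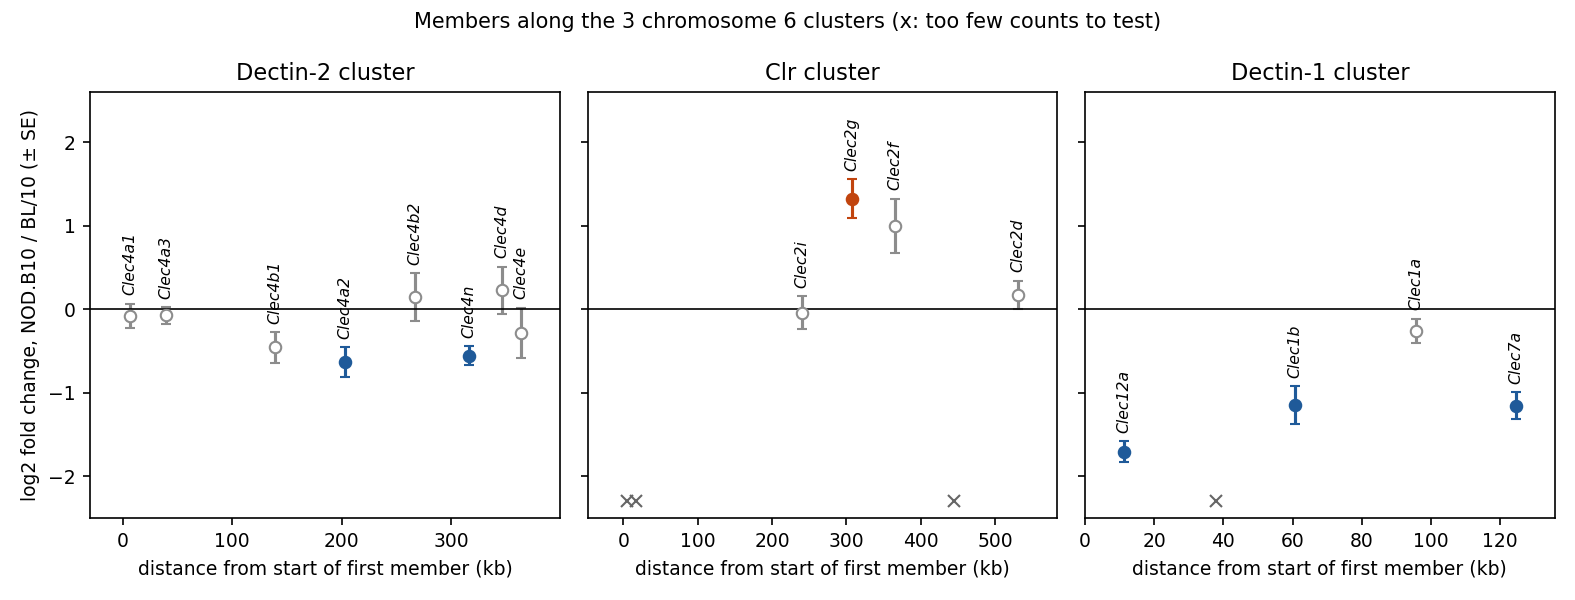
Log2 fold change (± standard error) of members along the 3 clusters of chromosome 6, against the distance in kb of the middle of each gene from the start of the first member of its cluster. Filled points passed an adjusted p of 0.05, crosses mark members with too few counts to test. Calls were 2 lower in the Dectin-2 cluster, 1 higher in the Clr cluster and 3 lower in the Dectin-1 cluster. Of all tested genes, 8.22% were called lower and 9.11% higher.

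All 8 members of the Dectin-2 cluster were tested, and 2 were called lower in NOD.B10 (8.22% of all tested genes were). Clec4n (ENSMUSG00000023349, chromosome 6 from 123229843 to 123247021) encodes Dectin-2, a receptor for fungal mannan that uses the FcRγ chain, and in BL/10 it was the most abundant member per length, at 151 CPM per kb of exon. It had 159, 134 and 144 CPM in NOD.B10 and 238, 206 and 201 CPM in BL/10. The strains did not overlap, and the difference was 1.47-fold (log2 fold change -0.56, SE 0.11, edgeR adjusted p = 0.0138). Without NOD.B10 replicate 2 or 3 the adjusted p of Clec4n was 0.0504 or 0.0547.

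Clec4a2 (ENSMUSG00000030148, from 123106428 to 123143999) encodes DCIR, an inhibitory receptor of dendritic and other myeloid cells. It had 38.9, 33.3 and 25.1 CPM in NOD.B10 and 41.7, 56.9 and 52.3 CPM in BL/10. The libraries were separated by a narrow gap, between NOD.B10 replicate 1 and BL/10 replicate 1. The log2 fold change of -0.63 (SE 0.18, edgeR adjusted p = 0.0476) lay at the edge of the threshold. The adjusted p of Clec4a2 was over 0.05 in 5 of the 6 fits without 1 replicate (each but the one without BL/10 replicate 1), and it was 0.429 in the 26-week libraries alone and 0.0654 with the replicate number as a block. Of the 50-base words in its transcripts, 6.83% also occur in transcripts of other genes, Clec4b1 among them, and reads of such words are left out of the counts.

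The other members of the Dectin-2 cluster did not pass the threshold. The DCIR relatives Clec4a1 and Clec4a3 had nearly equal means in the strains (30.2 and 31.9 CPM for Clec4a1, and 30.0 and 31.6 CPM for Clec4a3, in NOD.B10 and BL/10). Clec4b1, which encodes the activating receptor DCAR, had 4.90, 5.28 and 3.60 CPM in NOD.B10 and 5.76, 6.57 and 6.59 CPM in BL/10, without overlap (log2 fold change -0.46, SE 0.18, edgeR adjusted p = 0.124). Of the 50-base words of Clec4b1, 8.68% also occur in transcripts of Clec4a2. Clec4b2, a relative of Clec4b1, had a mean under 3 CPM in both strains.

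Mincle (Clec4e), a sensor of mycobacterial glycolipid and dead cells, and its partner MCL (Clec4d) lie side by side at the end of the cluster. Clec4d had 21.9, 16.3 and 8.82 CPM in NOD.B10 and 13.1, 13.3 and 13.8 CPM in BL/10. Clec4e had 12.8, 10.99 and 5.11 CPM in NOD.B10 and 12.3, 12.9 and 10.1 CPM in BL/10. For both genes NOD.B10 replicate 3 was the lowest of the 6 libraries, the strains overlapped, and the differences did not reach the threshold (adjusted p = 0.618 for Clec4d and 0.54 for Clec4e from edgeR).

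Clec5a (ENSMUSG00000029915), elsewhere on chromosome 6 from 40574894 to 40585821, encodes the myeloid receptor MDL-1, which signals through DAP12. It had 22.4, 19.8 and 14.2 CPM in NOD.B10 and 24.5, 40.3 and 30.3 CPM in BL/10. The libraries did not overlap, and the log2 fold change of -0.75 (standard error 0.22) missed the threshold in edgeR (adjusted p = 0.0536). It was past the threshold in 4 of the 15 settings, DESeq2 (adjusted p = 0.0123) and the fit without BL/10 replicate 1 (adjusted p = 0.0187) among them. In the libraries labelled 26 weeks its log2 fold change was -0.38 (edgeR adjusted p = 0.428).

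The Clec2 genes of the Clr cluster encode ligands of the NKR-P1 receptors of natural killer cells. Clec2d encodes Clr-b, the ligand of the inhibitory receptor NKR-P1B, and in NOD.B10 it was the most abundant member per length, at 108 CPM per kb of exon, beside 95.6 CPM per kb in BL/10. It had 153, 118 and 120 CPM in NOD.B10 and 145, 102 and 101 CPM in BL/10. The strains overlapped through BL/10 replicate 1 alone, which lay within the range of the NOD.B10 libraries (log2 fold change 0.17, SE 0.17, edgeR adjusted p = 0.515). Clec2i, which encodes the NKR-P1F ligand Clr-g, had 34.4, 33.8 and 36.5 CPM in NOD.B10 and 49.1, 29.4 and 29.3 CPM in BL/10. BL/10 replicate 1 was the highest of the 6 libraries, and the adjusted p for Clec2i was 0.9 in edgeR. With that library as the sole BL/10 sample, in the 26-week libraries, the log2 fold change was -0.49 for Clec2i and -0.15 for Clec2d. Without BL/10 replicate 1 it was 0.24 for Clec2i (edgeR adjusted p = 0.0989) and 0.35 for Clec2d (edgeR adjusted p = 0.0783).

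Clec2g (ENSMUSG00000000248, from 128934381 to 128984707), another gene of this family, was higher in NOD.B10. Counts of 63, 68 and 94 were found in the NOD.B10 libraries, and of 40, 25 and 25 in those of BL/10. The mean levels were 4.41 ± 0.783 and 1.76 ± 0.382 CPM (SD, n = 3 each). The strains did not overlap, and the log2 fold change was 1.32 (SE 0.24, edgeR adjusted p = 0.00907). The largest increase among the members was therefore in a gene of low level. Each fit without 1 replicate kept Clec2g past the threshold, and in the 26-week libraries alone its adjusted p was 0.124.

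For the next gene, Clec2f, NOD.B10 replicates held 50, 54 and 35 counts, and BL/10 replicates 19, 30 and 20. Its libraries overlapped in CPM, and its log2 fold change of 1.00 (SE 0.32, edgeR adjusted p = 0.0729) did not pass. Without BL/10 replicate 2 the adjusted p of Clec2f was 0.0474, and with the replicate number as a block it was 0.0483. Clec2l, a relative outside the cluster, had between 5 and 26 counts in any library (log2 fold change 0.94, SE 0.39, edgeR adjusted p = 0.137). Clec2j, Clec2h and Clec2e were at or under the floor of 3 counts in every library.

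Outside the clusters, 2 of the 8 tested members were higher in NOD.B10 (9.11% of all tested genes were). Clec14a (ENSMUSG00000045930, chromosome 12 from 58264720 to 58269258) encodes an endothelial surface protein of the thrombomodulin family. It had 34.2, 29.4 and 30.9 CPM in NOD.B10 and 17.8, 16.9 and 16.99 CPM in BL/10. Replicates lay close together in both strains, and the difference of 1.83-fold (log2 fold change 0.87, SE 0.10, edgeR adjusted p = 0.00118) passed the threshold under all 15 settings. No base of its exons overlaps another gene, and none of its 50-base words occurs in another.

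Clec16a (ENSMUSG00000068663, chromosome 16 from 10545339 to 10744878) carries the family name but encodes an intracellular protein of the autophagy pathway, and its human counterpart lies in a locus associated with autoimmune disease. It had 42.6, 37.9 and 46.4 CPM in NOD.B10 and 28.5, 28.9 and 28.1 CPM in BL/10. The strains did not overlap, and the log2 fold change was 0.57 (SE 0.10, edgeR adjusted p = 0.00754), or 1.49-fold. In the 26-week libraries alone the fold change of Clec16a was the same to 2 decimals (0.57), with an adjusted p of 0.0878.

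The remaining members did not pass the threshold. Clec4g, which encodes LSECtin of sinusoidal endothelium, had 17.3, 12.4 and 18.1 CPM in NOD.B10 and 30.7, 16.5 and 19.3 CPM in BL/10, with BL/10 replicate 1 far above the others (log2 fold change -0.48, SE 0.25, edgeR adjusted p = 0.216). In the libraries labelled 26 weeks, where BL/10 replicate 1 is the sole BL/10 sample, the log2 fold change of Clec4g was -0.94. Without BL/10 replicate 1 it was -0.18 (edgeR adjusted p = 0.502). The antisense gene Gm16553 overlaps 146 of its exonic bases, and strand was not used in the counting. Clec10a, the galactose-binding lectin MGL1 of macrophages and dendritic cells, had 10.3, 6.203 and 10.6 CPM in NOD.B10 and 5.54, 7.85 and 7.16 CPM in BL/10. Of its 50-base words, 9.02% occur in other genes, chiefly its paralog Mgl2.

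Clec11a and Clec3b, whose products are secreted, were low. Clec11a, a growth factor of bone marrow stroma, had 6.76, 7.68 and 8.88 CPM in NOD.B10 and 6.68, 4.90 and 5.85 CPM in BL/10, and its adjusted p was 0.137 in edgeR. Clec3b, which encodes the plasminogen-binding protein tetranectin, had 1.56, 1.04 and 2.36 CPM in NOD.B10 and 1.85, 2.28 and 5.57 CPM in BL/10. Its BL/10 mean rested on replicate 3, the strains overlapped, and its adjusted p was 0.197 in edgeR. The log2 fold change of Clec3b was -0.96 over the 6 libraries and -0.15 over those labelled 26 weeks.

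Per kb of exon, Clec4n and Clec2d stood above the other members in both strains, with 103 and 108 CPM per kb in NOD.B10 and 151 and 95.6 CPM per kb in BL/10. In BL/10, Clec7a (40.1 CPM per kb), Clec12a (25.2), Clec4a3 (23.8) and Clec4a1 (20.5) followed. In NOD.B10 the order of these 4 genes was Clec4a3 (22.6 CPM per kb), Clec4a1 (19.4), Clec7a (18.0) and Clec12a (7.72). Summed over the 31 members, the level was 783, 672 and 662 CPM in NOD.B10 and 1036, 975 and 900 CPM in BL/10.

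The partner chains of the activating receptors were examined next, in a list of 24 signaling genes of which 1 was higher and 3 were lower in NOD.B10. These 4 calls are 16.7% of the list, close to the 17.3% of all tested genes. The lower genes were the 3 membrane-spanning signaling chains of the list. Fcer1g, the FcRγ chain used by Dectin-2 and Mincle, had 94.98, 76.8 and 79.1 CPM in NOD.B10 and 130, 160 and 168 CPM in BL/10 (log2 fold change -0.87, SE 0.13, edgeR adjusted p = 0.00446). Tyrobp, which encodes DAP12, had 338, 278 and 256 CPM in NOD.B10 and 418, 460 and 361 CPM in BL/10 (log2 fold change -0.51, SE 0.14, edgeR adjusted p = 0.0482). Hcst, which encodes DAP10, had means of 14.5 and 20.5 CPM in NOD.B10 and BL/10 (log2 fold change -0.50, adjusted p = 0.0295 from edgeR). None of these genes overlapped between the strains.

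Inpp5d, the lipid phosphatase SHIP1, was the signaling gene that was higher (log2 fold change 0.37, SE 0.10, edgeR adjusted p = 0.0426). The kinase Syk and the adaptor Card9 did not pass the threshold (log2 fold change 0.37 and -0.51, adjusted p = 0.143 and 0.109 from edgeR). The median log2 fold change of the 24 genes was 0.08. Without BL/10 replicate 1, 8 of the 24 signaling genes were called, against 26.3% of all tested genes in that fit. Without BL/10 replicate 2 or any one NOD.B10 replicate, 1 gene was called, against 8.12% to 12.9% of all tested genes. None of the 24 was called in the libraries labelled 26 weeks.

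Of 7 genes for ligands and partners, 6 were tested, and 2 were lower in NOD.B10. These 2 calls are 33.3% of the tested genes of the list, beside 17.3% of all tested genes. Lgals9, which encodes galectin-9, a reported ligand of Dectin-1, had 98.9, 87.8 and 96.7 CPM in NOD.B10 and 140, 180 and 153 CPM in BL/10 (log2 fold change -0.74, SE 0.11, edgeR adjusted p = 0.0049). Klrb1f, the NKR-P1F receptor of natural killer cells, had 4.49, 3.26 and 3.03 CPM in NOD.B10 and 7.66, 10.9 and 5.74 CPM in BL/10 (log2 fold change -1.17, SE 0.27, edgeR adjusted p = 0.0249). Pdpn, which encodes podoplanin, the ligand of CLEC-2, had means of 1.42 and 2.70 CPM and did not pass (adjusted p = 0.16 from edgeR). The number called was 1 without NOD.B10 replicate 2, NOD.B10 replicate 3 or BL/10 replicate 2, and 1 in the libraries labelled 26 weeks.

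Several marker lists of myeloid cells also held genes that were lower in NOD.B10. Of 13 neutrophil genes, 11 were lower in NOD.B10 (summed level 2247 to 2618 CPM, against 6286 to 13071 CPM in BL/10), and so were all 8 genes of mast cells, basophils and eosinophils (78.8 to 114 CPM against 521 to 979 CPM). Within BL/10, the neutrophil sum was lowest in replicate 1 (6286 CPM). In that library Clec7a, Clec4n and Clec1b were at their highest, whereas Clec12a and Clec4a2 were at their lowest BL/10 level. The 2 neutrophil genes not called were the receptors Cxcr2 and Csf3r. Cxcr2 had means of 55.5 and 37.1 CPM in NOD.B10 and BL/10 (log2 fold change 0.58), and Csf3r 61.7 and 62.0 CPM (-0.0076). Of 9 monocyte genes, 3 were lower, but their summed level overlapped (4276 to 4767 CPM against 3677 to 4319 CPM). Of 9 platelet and megakaryocyte genes, 2 were lower (588 to 873 CPM against 748 to 1376 CPM), and of 10 endothelial genes, 3 were higher and 1 lower (737 to 905 CPM against 643 to 801 CPM). The shares called were 84.6% for neutrophil, 33.3% for monocyte, 22.2% for platelet and 40.0% for endothelial genes, beside 17.3% of all tested genes. The platelet count was 0 without BL/10 replicate 1, BL/10 replicate 3 or any one NOD.B10 replicate and 4 without BL/10 replicate 2. The endothelial count of 4 fell to 1 or 2 without any one NOD.B10 replicate, BL/10 replicate 2 or BL/10 replicate 3. Of all tested genes, 26.3% were called without BL/10 replicate 1 and 8.12% to 12.9% in each other fit without 1 replicate. In the libraries labelled 26 weeks, 7 neutrophil genes, 1 monocyte gene and 2 endothelial genes were called. The part of these cells in the results for Clec genes was not tested.

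Macrophage genes were called in both directions. As a background for the lists in this paragraph, 9.11% of all tested genes were called higher and 8.22% lower, or 17.3% in either direction. Of the red pulp macrophage genes, 2 of 10 were higher and 2 lower, with Cd163 (log2 fold change 1.70) and Cd5l (-1.63) among them. Of the marginal zone macrophage genes, 1 of 4 was higher and 1 lower. One gene of 7 was higher in each of the lists for cDC1 and cDC2 dendritic cells, and none of 6 plasmacytoid dendritic cell genes passed. Of the T cell genes, 6 of 8 were higher (717 to 960 CPM, against 392 to 487 CPM in BL/10). None of 6 B cell genes and none of 6 erythroid genes passed, while 1 of 7 natural killer cell genes and 1 of 7 stromal genes were higher and 1 of each was lower. Without BL/10 replicate 1, 4 of the 6 B cell genes were called, against 26.3% of all tested genes in that fit.

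Members were then set against the summed markers of a cell type in the same library. Clec1b had 5.54, 5.28 and 4.70 CPM per 100 CPM of platelet and megakaryocyte genes in NOD.B10 and 7.87, 9.23 and 6.96 in BL/10, so that the strains did not overlap on this scale either. Clec14a had 3.83, 3.98 and 3.41 CPM per 100 CPM of endothelial genes in NOD.B10 and 2.73, 2.63 and 2.12 in BL/10, again without overlap. Per 100 CPM of monocyte genes, Clec12a had a mean of 0.953 ± 0.0807 (SD, n = 3) in NOD.B10 and 3.45 ± 0.447 (SD, n = 3) in BL/10, and Clec7a and Clec4n were also lower in NOD.B10 without overlap.

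The monocyte scale rested on a single gene, since Lyz2, which macrophages and neutrophils also express, made up 75% to 85.1% of the sum. Of the same list, Ly6c2, Fcgr1 and Cd300e were lower in NOD.B10 (log2 fold change -3.98, -1.16 and -0.74). The other 6 genes did not pass, with values from -0.65 (F13a1) to 0.93 (Vcan), and the median of the list was -0.08. Without Lyz2, the strains still did not overlap for Clec12a (6.08 ± 0.343 and 15.56 ± 1.23, SD, n = 3) and Clec7a (6.72 ± 0.767 and 12.0 ± 3.03, SD, n = 3). For Clec4n they overlapped (20.7 ± 0.352 and 24.4 ± 5.58, SD, n = 3). Leaving out the leading gene of the platelet, endothelial or neutrophil sum (Ppbp, Pecam1 or S100a9) did not change whether the strains overlapped for the members set against them.

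Per 100 CPM of neutrophil genes the picture differed. Of that sum, 41.7% to 46.5% came from S100a9 (log2 fold change -2.06), whereas Cxcr2 and Csf3r of the same list did not pass the threshold. Clec12a overlapped between the strains (1.78 ± 0.233 in NOD.B10 and 1.45 ± 0.436 in BL/10, SD, n = 3), and so did Clec7a (1.97 ± 0.359 and 1.17 ± 0.620, SD, n = 3). Clec4n was higher in NOD.B10 on this scale, with 6.67, 5.13 and 6.41 against 3.78, 1.58 and 1.75 in BL/10. These ratios are a description, and no test was made on them.

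**Figure D4:**
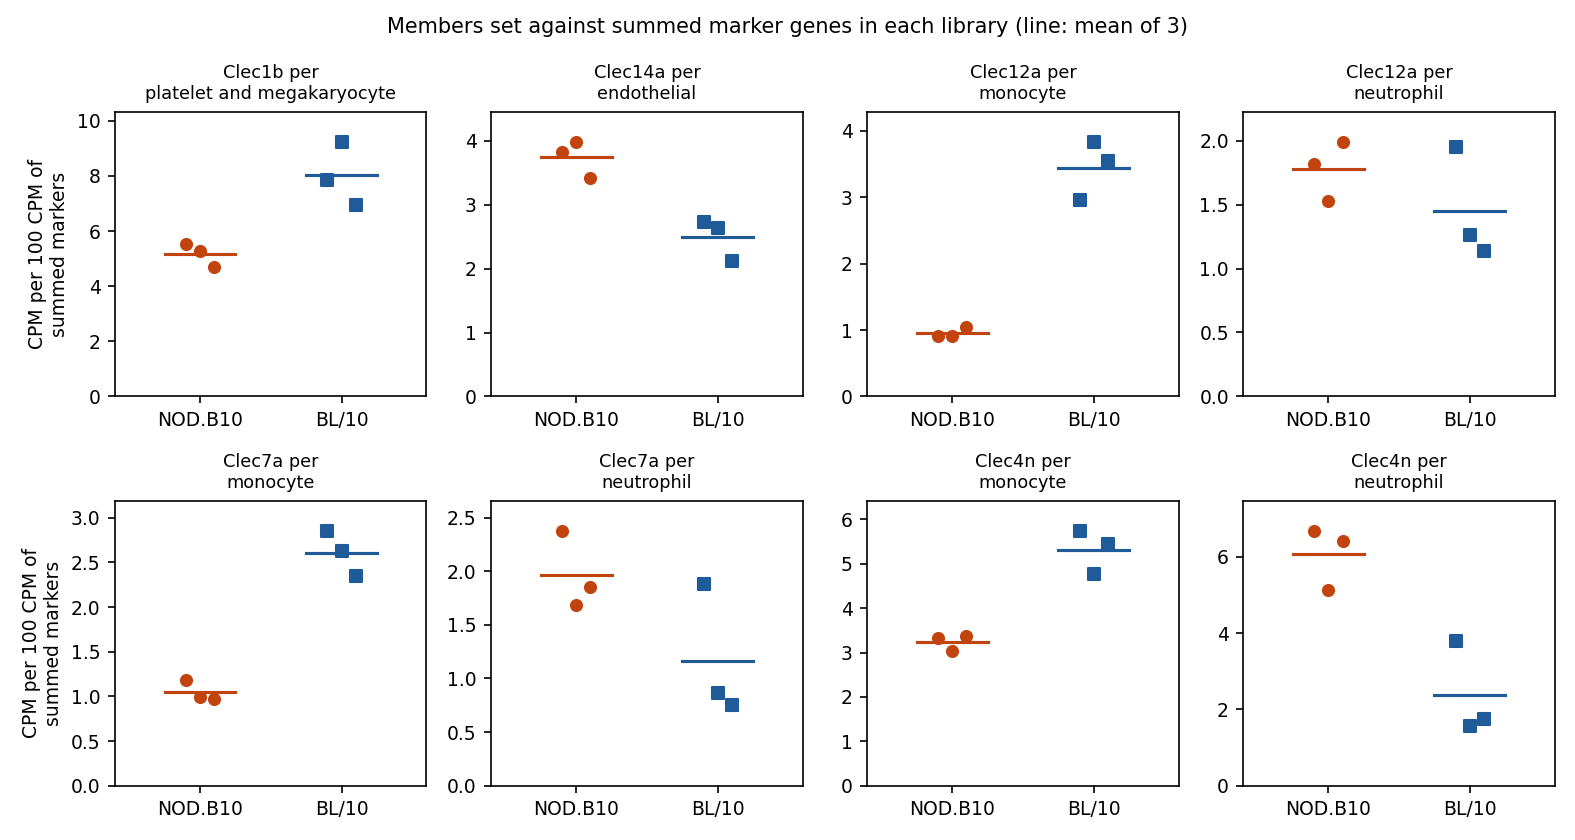
CPM of a member per 100 CPM of the summed marker genes of a cell type, in each library (points; lines show the mean of 3). Clec1b per platelet genes and Clec12a, Clec7a and Clec4n per monocyte genes were lower in each NOD.B10 library than in each BL/10 library (for Clec4n not when Lyz2 was left out), and Clec14a per endothelial genes was higher; per neutrophil genes, Clec12a and Clec7a overlapped and Clec4n was higher in NOD.B10.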

How the data were processed

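The authors sequenced spleen RNA of 3 female mice per strain in single-end reads of 50 bases. The authors deposited raw read counts per gene, without normalization, and the exonic length of each gene in bases. Per the file header, reads were counted with featureCounts version 1.5.1 on exons of Ensembl annotation 84 (GRCm38), without use of strand. The paper names Tophat2 and mm10 for mapping, and the submitters' processing notes name HISAT2 version 2.0.5 and GRCm38. Reads placed at several sites or shared by overlapping genes are left out by default in such counting.

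Symbols came from GENCODE M21 (GRCm38) for 47224 of 47729 gene identifiers. The strain was taken from descriptions and column names. Counts were analysed with R version 4.3.3 and edgeR version 4.0.16 (filterByExpr, TMM, quasi-likelihood test, Benjamini-Hochberg adjustment over 15330 genes). Each standard error (SE) is the size of the log2 fold change divided by the square root of its F value. Alternatives were DESeq2 version 1.42.0, limma version 3.58.1 (voom with quality weights), RLE and upper-quartile scaling, other filters (any count, or at least 10 counts in every library), a replicate block, leaving out each library, the 26-week libraries alone, leaving out hemoglobin, immunoglobulin and pancreas acinar genes, and an adjusted p under 0.01. The smallest p of an exact permutation test on a single gene is 0.1 with 3 libraries per strain. On simulated counts for this comparison, 154 of 200 genes changed by 2-fold were found, with 7 unchanged genes called among 15142 run. The simulation gave all genes the same spread between replicates and held no library that stood apart. Its numbers may therefore differ from those for the real counts.

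Named members were those past the threshold, those with a mean of at least 3 CPM in either strain (21 in all), and neighbors of called members. Of the signaling and partner lists, genes past the threshold were named. Clec2l, Syk, Card9 and Pdpn fall outside this rule and were named after their values were seen. Members, signaling, partner and marker lists were chosen from general knowledge with earlier results of these data known. The ratios to marker sums, with and without the leading gene of each sum, were added after the data were seen. The study describes the 3 libraries of each strain as biological replicates.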

Additional observations from a re-analysis of the deposited data

How the results depend on the processing

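The number of Clec members past the threshold was 8 in all, 3 higher and 5 lower in NOD.B10. The number ran from 6 to 9 in the fits without 1 replicate (3 to 4 higher, 3 to 6 lower). It was 5 at an adjusted p under 0.01 (3 higher, 2 lower), and 5 in the 26-week libraries alone (1 higher, 4 lower), a fit of 3 libraries against 1 that takes the lone BL/10 library to vary like those of NOD.B10. The cause of the smaller number in these libraries beyond the fewer samples was not tested. Under the other settings the number was 8 or 9. No called member changed its direction under any setting. Clec12a, Clec7a and Clec14a passed under all 15 settings, Clec1b, Clec2g and Clec16a under 14, Clec4n under 13 and Clec4a2 under 8.

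Deviations of same-numbered libraries from their strain means correlated at 0.032, 0.172 and -0.084 over genes. NOD.B10 replicate 2 correlated best with BL/10 replicate 2. NOD.B10 replicate 1 correlated best with BL/10 replicate 3 (0.044), and NOD.B10 replicate 3 with BL/10 replicate 1 (0.158). No clear pairing by replicate number was seen, but such deviations cannot exclude a pairing. With the replicate number as a block, 8 members were called (4 higher, 4 lower), with Clec2f gained and Clec4a2 lost, and 2889 genes were called in all, against 2656 without it. Clec2g, Clec2f and Clec2l had at most 94 counts in a library, and for the 7 untested members no difference was detectable at this depth.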

Other observations

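Genes for C-type lectin domain proteins that are not named Clec were also examined, as a list of 29 genes. The test called 7 of the 24 with enough counts (4 higher and 3 lower in NOD.B10, median 0.11 on the log2 scale), and the number called was 4 without NOD.B10 replicate 3 and 3 in the libraries labelled 26 weeks. The 7 calls over the 6 libraries are 29.2% of the tested genes of this list, beside 17.3% of all tested genes. The largest difference was in Cd207, which encodes langerin, a receptor of Langerhans and some dendritic cells. Cd207 had 15.3, 11.3 and 17.3 CPM in NOD.B10 and 1.90, 1.41 and 1.70 CPM in BL/10 (log2 fold change 3.12, SE 0.22, edgeR adjusted p = 0.000144), so that the highest BL/10 library lay far under the lowest NOD.B10 library. Cd209b, which encodes SIGN-R1 of marginal zone macrophages, went the other way, with 26.0, 21.4 and 28.9 CPM in NOD.B10 and 72.2, 78.7 and 76.7 CPM in BL/10 (log2 fold change -1.57, SE 0.12, edgeR adjusted p = 0.000202). Its relative Cd209d was higher in NOD.B10 (10.6 ± 3.14 against 5.24 ± 0.943 CPM, SD, n = 3, edgeR adjusted p = 0.0255). Olr1, the receptor for oxidized lipoprotein that lies near Clec7a, was lower (1.47 ± 0.0551 against 4.91 ± 1.81 CPM, SD, n = 3, edgeR adjusted p = 0.0108). Pla2r1 and Colec12 were higher, and Colec11, with under 1 CPM in every library, was lower.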
